A study of Mus musculus with 15 samples.

Results

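Mucins and the goblet cell genes that make, fold and accompany them were followed in the conjunctiva of mice with skin inflammation–induced conjunctivitis. The set comprised 10 genes, taken by symbol from a table of 55487 genes: the secreted, gel-forming mucins *Muc5ac* and *Muc5b*, the membrane mucins *Muc1*, *Muc4* and *Muc16*, the goblet cell transcription factor *Spdef*, the mucin-folding chaperone *Agr2*, and the secreted goblet cell products *Fcgbp*, *Clca1* and *Tff3*. The table held RNA-Seq counts of conjunctiva from 15 samples in 3 groups of 5. All animals were female WT mice of the strain written BALC/c in the sample labels, 9 to 12 weeks old, and all, controls included, were skin sensitized with MC903 (calcipotriol, a vitamin D analog that inflames the skin) plus OVA, the MC903 at 2.5 nmol per day for 7 days. From day 18 to day 24 the eyes received PBS (PBS group, no antibody stated) or OVA. By intraperitoneal injection at 25 mg/kg, begun before the challenge, the mice given OVA received an isotype control antibody, forming the isotype group, or the receptor-blocking antibody, forming the anti–IL-4Rα group. The labels do not say whether a sample was 1 animal or a pool, and p values measure only the spread between these samples.

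The mucus of the eye has 2 layers of origin. Goblet cells, single secretory cells set in the conjunctival epithelium, release gel-forming mucins into the tear film, and *Muc5ac* is their classical product. Stratified epithelial cells carry mucins with a transmembrane domain on their apical surface, where they form the glycocalyx. In the airway and the gut, IL-13 acting through IL-4Rα and STAT6 is a known driver of goblet cell genes, and *Spdef* and *Clca1* are among the genes it raises there. The comparisons asked which of these genes differed with OVA challenge (isotype against PBS) and which differed with receptor blockade (anti–IL-4Rα against isotype). No antibody is stated for the PBS group, so in comparisons with it the challenge and the injection of antibody cannot be told apart. Differences described below as with challenge carry this limit. The isotype group enters both, so the values of each comparison are given side by side and not as independent evidence.

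Library totals ranged from 48622246 to 87745024 counts. All 10 listed markers of conjunctival and corneal epithelium passed the filter on low counts, with a summed level of 11200 to 18000 CPM (library counts scaled to a common, TMM-normalized total). Most of that sum was *Krt5*, *Krt14* and *Krt15*, basal keratins that epidermis shares, with medians of 5310, 3160 and 2530 CPM. *Krt13* and *Krt4*, keratins of stratified mucosa, were at 554 to 1180 and 516 to 1180 CPM, and the corneal keratin *Krt12* was at 0.695 to 47.2 CPM. The dissections also held other tissue. Epidermal markers, as of lid skin, summed to 11800 to 23700 CPM. Lacrimal acinar markers summed to 621 to 31400 CPM in the PBS libraries, 431 to 20200 CPM in the isotype libraries and 1270 to 88900 CPM in the anti–IL-4Rα libraries, and hair follicle genes reached 6640 CPM in isotype replicate 2. In bulk tissue, fewer cells of a type and less RNA per cell cannot be told apart.

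Mucin genes carry tandem repeats. How reads that fit more than 1 place were counted is not stated, so the repeats may bear on how far a mucin count can be read. In the reference transcripts, 20.3% of all 90-base stretches of *Muc5ac* occurred more than once in that transcript, against 16.9% in *Muc5b*, 2.74% in *Muc4*, 0.615% in *Muc16* and 0 in *Muc1* and the other members. The reference is the same for all samples, so any effect of this share would bear on levels compared between genes. The following sequences (GRCm38, read in the direction of the transcript) show them. The first is 1 full repeat unit of *Muc5ac*, 48 bases long and present in 11 exact copies in exon 31 of 49, at chr7:141808654-141808701 on the plus strand. The others are the most frequent 24-base stretches of *Muc5b* (6 copies, exon 31, chr7:141858017-141858040, plus strand), *Muc4* (10 copies over exons 2 to 4, chr16:32750540-32750563, plus strand) and *Muc16* (4 copies, exon 4, chr9:18642305-18642328, minus strand).
Muc5ac unit: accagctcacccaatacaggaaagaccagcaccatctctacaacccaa
Muc5b: accacctgccaaccccaatgtcag
Muc4: cagctcagctccaagtacaacaca
Muc16: taactaagaatcaaacttcttctg

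Few of the members passed the test, and those that did were goblet cell genes other than mucins. With OVA challenge, *Spdef* and *Clca1* rose and no member fell in isotype against PBS. That is 2 of the 9 members tested higher and 0 lower, where 9.53% of all 19006 genes tested were called higher, 7.49% lower and 17.0% in either direction (edgeR, adjusted p under 0.05). With receptor blockade, *Fcgbp* and *Clca1* fell and no member rose in anti–IL-4Rα against isotype, where 6.73% of all genes were called higher, 8.13% lower and 14.9% in either direction. Against PBS, the anti–IL-4Rα group had *Spdef* higher and *Fcgbp* lower, with backgrounds of 2.28%, 1.44% and 3.72%. With 9 members tested, a count of 2 in either direction is near the first pair of backgrounds (17.0% and 14.9%), and nothing particular to the set is read from it. None of the 5 mucins was called in any of the 3 comparisons by edgeR or by DESeq2, and 1, *Muc5b* in isotype against PBS, had an unadjusted edgeR p under 0.05. The median log2 fold change of the 9 members was 0.16, -0.02 and -0.04 in the 3 comparisons, and that of all genes tested was -0.01, 0.01 and -0.00.

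**Figure D1:**
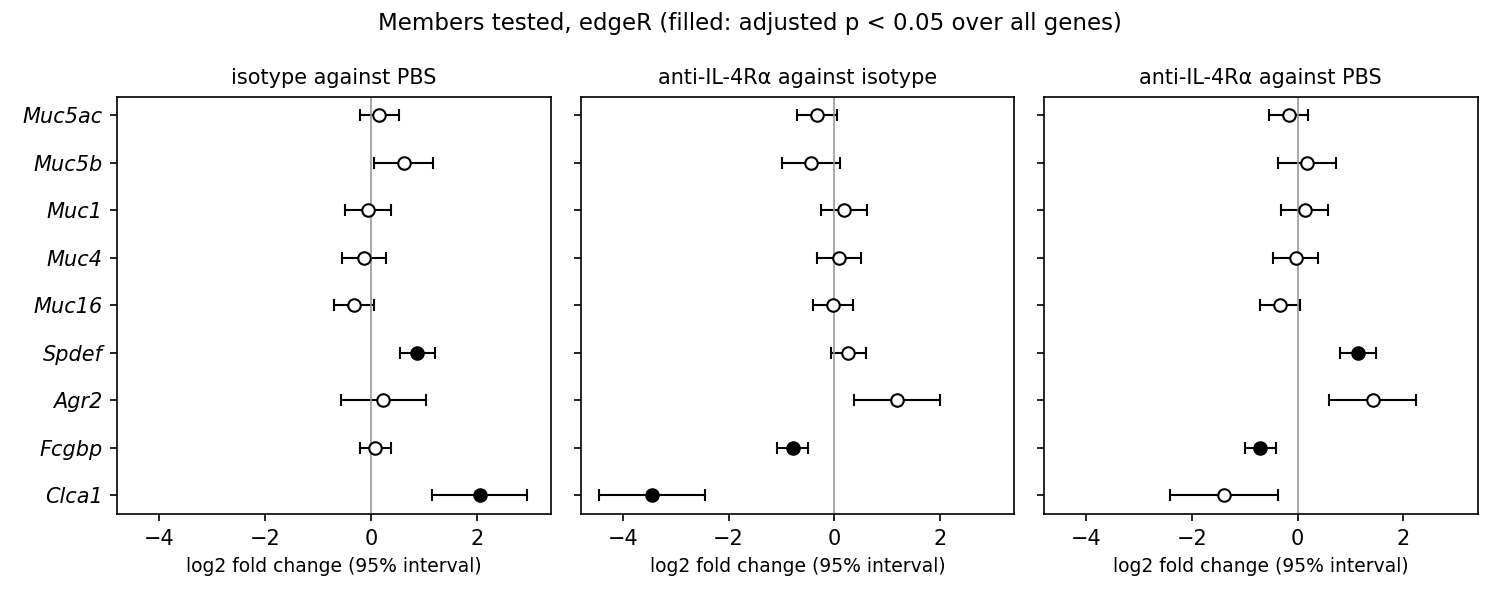
The log2 fold change (x axis) of the 9 members tested is drawn with its 95% interval for isotype against PBS, anti–IL-4Rα against isotype and anti–IL-4Rα against PBS, filled where the edgeR adjusted p was under 0.05. The 5 mucins are open circles in every panel, and *Clca1* has the largest values, 2.06 and -3.45 in the first 2 panels.

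Among the secreted mucins, *Muc5ac* (ENSMUSG00000037974; chromosome 7, 141788972 to 141819231, plus strand) was by far the more abundant. Its level was 1490, 1650, 1960, 1570 and 1140 CPM in the PBS libraries, 1740, 1500, 2020, 1450 and 2010 CPM in the isotype libraries, and 1650, 1270, 1790, 1240 and 994 CPM in the anti–IL-4Rα libraries. The 3 groups overlapped throughout, and the highest and the lowest library of the isotype group both lay within or just above the range of the PBS group. Its log2 fold change was 0.16 (95% interval -0.21 to 0.53, edgeR adjusted p = 0.559) in isotype against PBS and -0.33 (-0.70 to 0.04, adjusted p = 0.199) in anti–IL-4Rα against isotype. Against PBS, the anti–IL-4Rα group was at -0.17 (-0.54 to 0.20, adjusted p = 0.602). The intervals of *Muc5ac* thus reach from -0.70 to 0.53 on the log2 scale over the 3 comparisons.

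*Muc5b* (ENSMUSG00000066108; chromosome 7, 141839070 to 141873084, plus strand) begins 19839 bases beyond the end of *Muc5ac* and encodes the other large gel-forming mucin. It was at 54.2, 90.2, 108, 74.5 and 57.5 CPM in the PBS libraries, 104, 156, 158, 59.6 and 111 CPM in the isotype libraries and 111, 71.2, 101, 86.4 and 63.9 CPM in the anti–IL-4Rα libraries. Only 2 isotype libraries, replicates 2 and 3, stood above all others, and isotype replicate 4 was near the bottom of the PBS range. With challenge, *Muc5b* differed by 0.62 on the log2 scale. The interval of that difference, 0.06 to 1.17, did not include 0, but the adjusted p over all genes was 0.113 (edgeR), and an exact permutation test gave a two-sided p of 0.111. That *Muc5b* was not called rested on 1 library: without isotype replicate 4 the log2 fold change was 0.79 with an edgeR adjusted p of 0.0305. Its value was -0.44 (-0.996 to 0.11, edgeR adjusted p = 0.244) in anti–IL-4Rα against isotype and 0.17 (-0.38 to 0.73, adjusted p = 0.74) in anti–IL-4Rα against PBS.

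The membrane mucins showed no called difference, and their intervals were of similar width. *Muc4* (ENSMUSG00000079620; chromosome 16, 32735886 to 32782391, plus strand), a large membrane mucin of the ocular surface, averaged 585 ± 139 CPM in the PBS libraries, 534 ± 96.9 CPM in the isotype libraries and 569 ± 151 CPM in the anti–IL-4Rα libraries (SD, n = 5 each). Its log2 fold changes were -0.13 (-0.55 to 0.29), 0.09 (-0.34 to 0.51) and -0.04 (-0.46 to 0.38) in the 3 comparisons, in the order isotype against PBS, anti–IL-4Rα against isotype and anti–IL-4Rα against PBS. The gene lies over *Muc20* on the opposite strand, and since the use of strand in counting is not stated, reads of the overlapping part cannot be assigned with certainty.

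*Muc1* (ENSMUSG00000042784; chromosome 3, 89229057 to 89233381, plus strand), the short membrane mucin of most secretory epithelia, averaged 158 ± 30.5, 153 ± 30.9 and 173 ± 52.1 CPM in the PBS, isotype and anti–IL-4Rα groups. The log2 fold changes were -0.05 (-0.50 to 0.39), 0.18 (-0.26 to 0.62) and 0.13 (-0.31 to 0.57) in the same order of comparisons. *Muc16* (ENSMUSG00000109564; chromosome 9, 18495455 to 18674530, minus strand), a very large mucin of the corneal and conjunctival glycocalyx, was low at 6.8 ± 1.36, 5.47 ± 1.01 and 5.37 ± 1.09 CPM. Its log2 fold changes were -0.32 (-0.69 to 0.06), -0.02 (-0.40 to 0.36) and -0.34 (-0.72 to 0.04). The edgeR adjusted p values of the membrane mucins ran from 0.23 to 0.94 over the 3 genes and 3 comparisons.

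**Figure D2:**
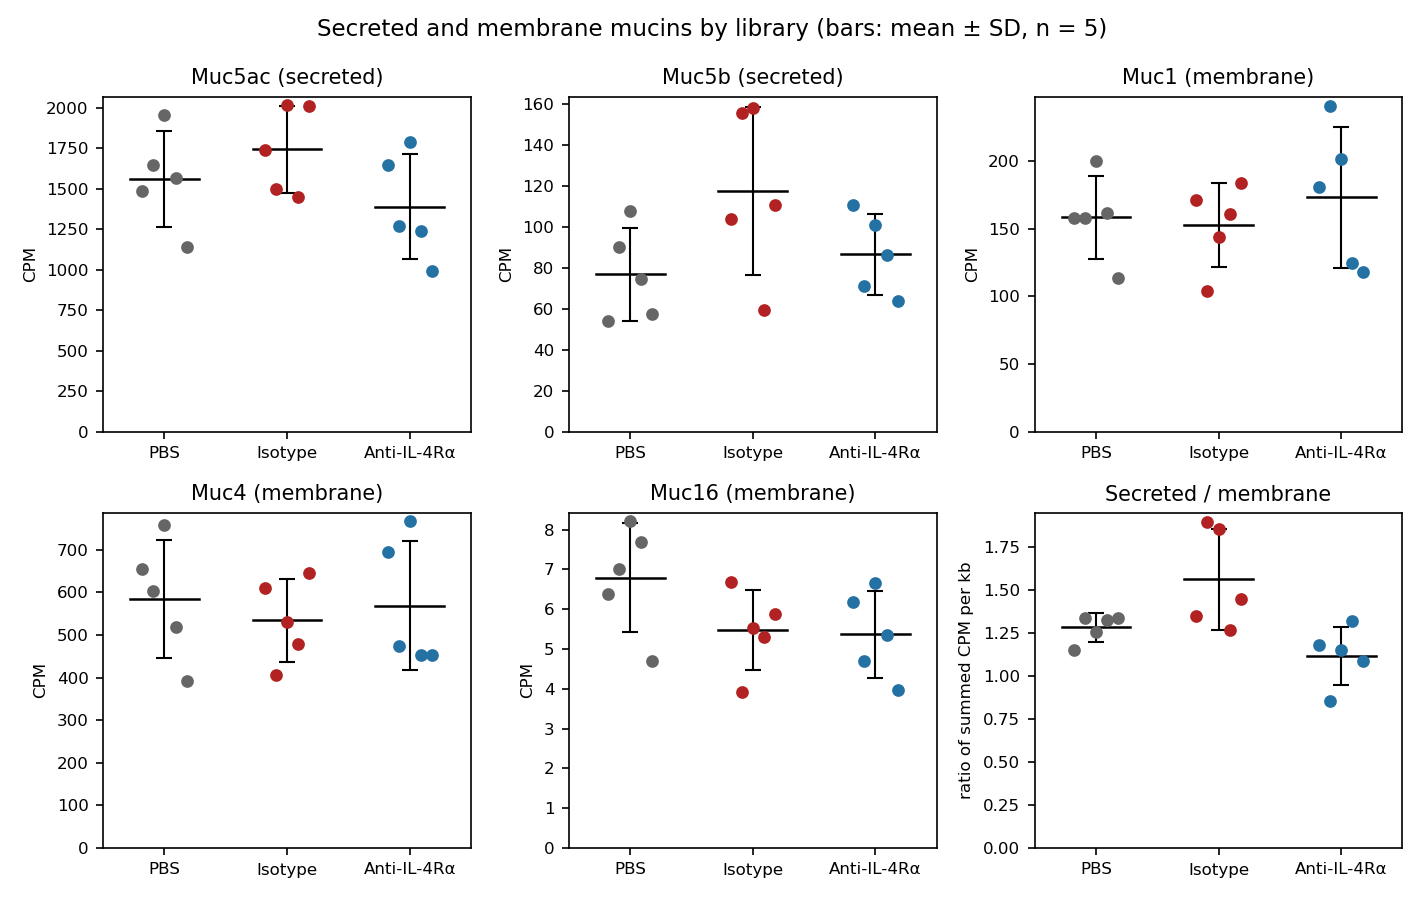
Each point is 1 library (y axis CPM, starting at 0) of the PBS, isotype and anti–IL-4Rα groups, with the mean ± SD of 5 libraries in black. The last panel gives the ratio of summed secreted to summed membrane mucin levels per kilobase. The groups overlap in every panel, and the isotype libraries reach the highest ratios, 1.86 and 1.9.

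Levels were compared between genes only per length, as CPM per kilobase of exon. By the median of all 15 libraries the order was *Muc5ac* (146), *Muc1* (68.5), *Agr2* (49.7), *Muc4* (45.2), *Fcgbp* (21.6), *Muc5b* (6.03), *Spdef* (5.84), *Muc16* (0.223) and *Clca1* (0.0983 CPM per kilobase), with *Tff3* at 0. Within a library, *Muc5ac* was above *Muc1* in all 15, *Muc4* was above *Fcgbp* and *Fcgbp* above *Muc5b* in all 15, and *Spdef* was above *Muc16* in all 15. Other neighbours changed places: *Muc1* was above *Agr2* in 10 of 15 libraries, *Agr2* above *Muc4* in 8, *Muc5b* above *Spdef* in 7 and *Muc16* above *Clca1* in 11. Whether the repeats described above altered the counts of *Muc5ac* and *Muc5b* was not tested. Per kilobase, *Muc5ac* made up 93% to 97.4% of the secreted pair, and *Muc4* made up 28.1% to 45.2% of the membrane mucins, most of the remainder being *Muc1*.

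The balance between the secreted pair and the 3 membrane mucins was described per library, with no test because the genes were chosen with results known. The ratio of summed CPM per kilobase, secreted to membrane, was 1.15, 1.34, 1.26, 1.33 and 1.34 in the PBS group. It was 1.35, 1.9, 1.86, 1.27 and 1.45 in the isotype group, and 1.18, 0.858, 1.15, 1.32 and 1.09 in the anti–IL-4Rα group. The means were 1.28 ± 0.082, 1.57 ± 0.294 and 1.12 ± 0.169 (SD, n = 5). The highest 2 ratios were isotype replicates 2 and 3, the same libraries that were highest in *Muc5b* and, for replicate 2, in hair follicle genes, and isotype replicate 4 lay inside the range of the other groups. Without the division by length the means were 2.2, 2.73 and 1.98, in the same order of groups.

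*Muc5ac* rose and fell with *Muc4* and *Muc16* from library to library, and less closely with *Muc1*. *Muc5b* ran less closely with the membrane mucins than with *Muc5ac*. After each group's mean was removed, log2 CPM of *Muc5ac* correlated with that of *Muc4* at a Pearson r of 0.879 and with that of *Muc16* at 0.845, and *Muc4* correlated with *Muc16* at 0.844 (15 libraries, a description that shares library, dissection and normalization). The corresponding r was 0.669 for *Muc5ac* with *Muc1* and 0.672 for *Muc5ac* with *Muc5b*. *Muc5b* was at 0.379 with *Muc4*, 0.347 with *Muc16* and 0.069 with *Muc1*. *Agr2* ran the other way, at -0.529 with *Muc5ac*. The strongest of these relations joined the secreted *Muc5ac* to the membrane mucins *Muc4* and *Muc16*.

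The genes most alike in pattern were searched among all genes tested, by the Pearson r of log2 CPM over the 15 libraries. For *Muc5ac* they were *Wfdc2* (0.933), *Misp* (0.917), *Gm5478* (0.913), *Csk* (0.907) and *Tff1* (0.906), the last a trefoil peptide secreted with mucus. For *Muc4* they were *Adgrf1* (0.974), *Slc39a4* (0.972), *Capn5* (0.972), *Mal* (0.963) and *Mgat4a* (0.963), and for *Muc16* they were *Lman1l* (0.924), *Slc16a11* (0.921), *Slc13a2* (0.914), *Bace2* (0.906) and *Cyp4a12b* (0.903). *Muc5b* had weaker neighbours, led by *Nufip2* (0.866), *Glis2* (0.848), *Gprc5a* (0.835), *Fam20a* (0.829) and *Crk* (0.822).

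*Spdef* (ENSMUSG00000024215; chromosome 17, 27714352 to 27728955, minus strand), an ETS-family transcription factor required for goblet cell differentiation in the conjunctiva, rose with challenge and was not lower under receptor blockade. Its level was 6.68, 7.77, 8.97, 7.82 and 9.31 CPM in the PBS libraries, 13.9, 13.4, 18.9, 10.9 and 17.3 CPM in the isotype libraries, and 20, 13.5, 20.3, 19.8 and 15.8 CPM in the anti–IL-4Rα libraries. Every library of both OVA-challenged groups lay above every PBS library, and the OVA-challenged groups overlapped each other. On challenge the log2 fold change was 0.87 (SE 0.16, edgeR adjusted p = 0.00366), from a mean of 8.11 ± 1.05 CPM to 14.9 ± 3.2 CPM (SD). Against PBS, anti–IL-4Rα libraries differed by 1.14 (SE 0.16, adjusted p = 0.00569). The groups without overlap gave an exact permutation p of 0.00794 (two-sided) in both comparisons, the smallest that 5 libraries against 5 allow. Of all genes tested, 12.3% had no overlap in isotype against PBS and 6.10% in anti–IL-4Rα against PBS. Between the antibodies the log2 fold change was 0.27 (-0.06 to 0.60, edgeR adjusted p = 0.241), an interval that excludes a decrease of more than 0.06 on the log2 scale. With a lacrimal acinar marker score as a covariate the log2 fold change against PBS was 1.11 (edgeR adjusted p = 0.0281).

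*Clca1* (ENSMUSG00000028255; chromosome 3, 145003817 to 145032776, minus strand), a secreted metalloprotease that goblet cells release into mucus, had the largest fold changes of the members in isotype against PBS and in anti–IL-4Rα against isotype, at a low level and on the scale of counts. In anti–IL-4Rα against PBS, that of *Agr2* (1.42) was larger in size. The counts were 27, 21, 27, 16 and 32 in the PBS libraries, 29, 97, 120, 84 and 200 in the isotype libraries, and 10, 9, 14, 7 and 2 in the anti–IL-4Rα libraries. As CPM these were 0.371, 0.356, 0.478, 0.306 and 0.562 in the PBS group, 0.592, 0.993, 2.02, 1.47 and 3.61 in the isotype group, and 0.213, 0.136, 0.204, 0.173 and 0.0472 in the anti–IL-4Rα group. The 3 groups did not overlap, with the anti–IL-4Rα libraries lowest, although isotype replicate 1 was just above PBS replicate 5. Groups without overlap occurred in 12.3% of all genes tested in isotype against PBS, in 7.31% in anti–IL-4Rα against isotype and in 6.10% in anti–IL-4Rα against PBS.

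The log2 fold change of *Clca1* was 2.06 (SE 0.42, edgeR adjusted p = 0.00695) in isotype against PBS and -3.45 (SE 0.47, edgeR adjusted p = 0.00121) in anti–IL-4Rα against isotype. For anti–IL-4Rα against PBS it was -1.39 (-2.42 to -0.37), which did not pass over all genes (edgeR adjusted p = 0.105), while the exact permutation test of this 1 gene gave its smallest two-sided p, 0.00794. DESeq2 called that difference (adjusted p = 0.042), as did an edgeR fit of these 2 groups alone (adjusted p = 0.0481). The size depended on the scale: on log2(FPKM + 1) the first 2 differences were 0.37 and -0.46, both still called, where *Spdef* was at 0.69 in the first and *Fcgbp* at -0.75 in the second. The relatives *Clca3a1*, *Clca3a2* and *Clca3b* on the same chromosome, chosen after their values were seen, had 691 to 11367 counts per library, far more than *Clca1*, and whether reads were shared between them was not tested. In isotype against PBS, where *Clca1* rose, *Clca3a1* fell by 0.46 (edgeR adjusted p = 0.00694), *Clca3a2* was at -0.07 and *Clca3b* at -0.19. In the comparison of the antibodies, *Clca3a2* fell by 0.70 (edgeR adjusted p = 0.0198), and *Clca3a1* and *Clca3b* were at -0.07 and -0.13. The genes most like *Clca1* over the 15 libraries were *Mmp9* (r = 0.969), *Hsd11b1* (0.932), *A730020M07Rik* (0.932), *Duox2* (0.931) and *Col6a5* (0.925).

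*Fcgbp* (ENSMUSG00000047730; chromosome 7, 28071236 to 28120862, plus strand), a mucus protein with von Willebrand factor D domains that binds to mucins, fell under receptor blockade, with no called difference on challenge. It was at 242, 180, 226, 228 and 263 CPM in the PBS libraries, 246, 174, 250, 239 and 296 CPM in the isotype libraries, and 146, 109, 140, 167 and 134 CPM in the anti–IL-4Rα libraries. All anti–IL-4Rα libraries lay below all others, and the PBS and isotype groups covered nearly the same range. Its log2 fold change was -0.79 (SE 0.14, edgeR adjusted p = 0.00545) against isotype and -0.71 (SE 0.14, edgeR adjusted p = 0.0231) against PBS, each with an exact permutation p of 0.00794 (two-sided). In isotype against PBS it was 0.08 (-0.21 to 0.38, edgeR adjusted p = 0.728). The call against PBS was lost when any of 4 single libraries was left out, namely replicates 1 and 4 of the PBS group and replicates 1 and 5 of the anti–IL-4Rα group (edgeR adjusted p up to 0.0633). With the lacrimal acinar score as a covariate the values were -0.86 (edgeR adjusted p = 0.008) and -0.82 (adjusted p = 0.0411). The related gene *9530053A07Rik* beside it, chosen after its values were seen, had 7 to 44 counts per library, against 5692 to 17583 for *Fcgbp*.

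**Figure D3:**
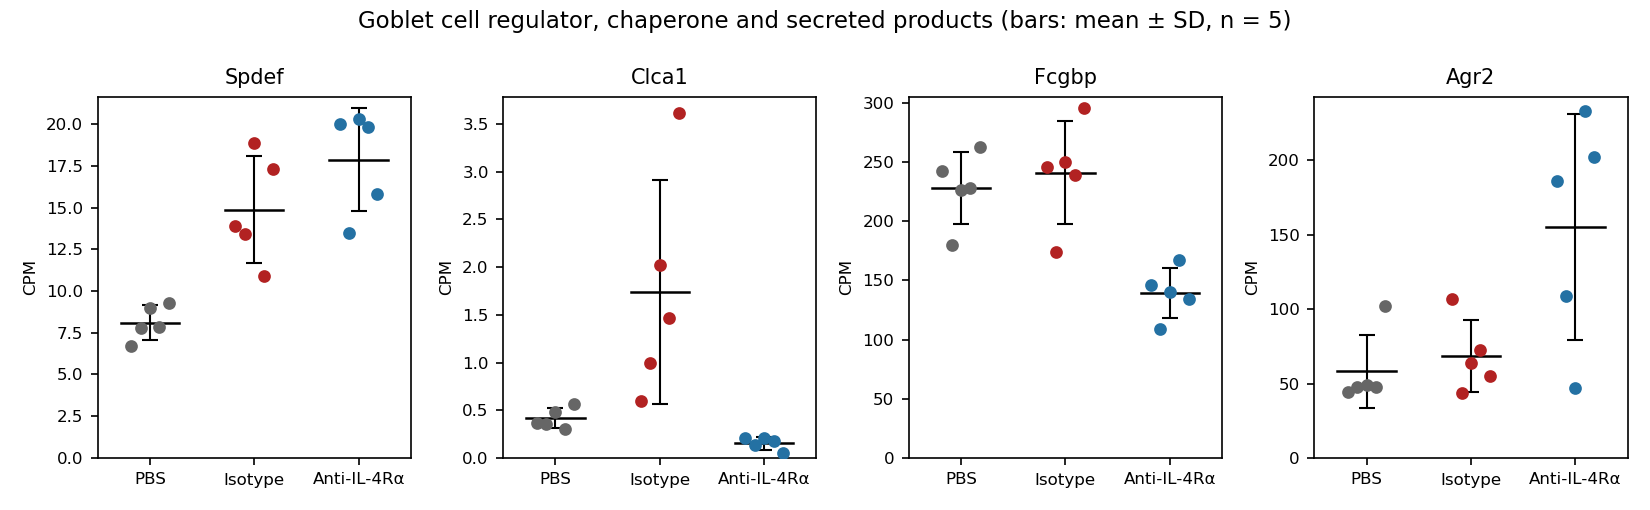
Each point is 1 library (y axis CPM, starting at 0), with the mean ± SD of the 5 libraries of a group in black. *Spdef* is higher in both OVA-challenged groups than in all PBS libraries, *Clca1* is high in the isotype group, *Fcgbp* is lowest in the anti–IL-4Rα group, and *Agr2* spreads from 47.1 to 233 CPM within the anti–IL-4Rα group.

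*Agr2* (ENSMUSG00000020581; chromosome 12, 35992907 to 36004087, plus strand), a protein disulfide isomerase of the endoplasmic reticulum needed for mucin folding, was uneven between libraries. Its level was 44.4, 47.7, 49.1, 47.7 and 102 CPM in the PBS libraries, 107, 43.7, 64.1, 72.6 and 55.1 CPM in the isotype libraries, and 186, 109, 47.1, 233 and 202 CPM in the anti–IL-4Rα libraries. Of the 5 anti–IL-4Rα libraries, 4 were above all others, and replicate 3 was among the lowest of all 15. On challenge it differed by 0.24 on the log2 scale (-0.57 to 1.04, edgeR adjusted p = 0.709) in isotype against PBS. Under blockade it was 1.18 (0.37 to 1.998, edgeR adjusted p = 0.0506) against isotype and 1.42 (0.60 to 2.24, adjusted p = 0.0543) against PBS, so neither passed. Without anti–IL-4Rα replicate 3 the same differences were 1.41 (edgeR adjusted p = 0.00745) and 1.65 (adjusted p = 0.00581), and without PBS replicate 5 they were 1.18 (adjusted p = 0.0412) and 1.72 (adjusted p = 0.0328). Against isotype, *Agr2* was also called without isotype replicate 1 (edgeR adjusted p = 0.0286), and against PBS without isotype replicate 2 (adjusted p = 0.0485). DESeq2 called both with all libraries (adjusted p = 0.0103 and 0.00315).

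*Agr2* is made by serous and mucous gland cells as well as by goblet cells, and it followed the lacrimal acinar markers. *Bhlha15*, the transcription factor of serous acinar cells, was at 1.06, 8.18, 1.43, 20.9 and 126 CPM in the PBS libraries, 95.4, 1.15, 20.5, 70.9 and 14.9 CPM in the isotype libraries and 333, 159, 6.13, 422 and 392 CPM in the anti–IL-4Rα libraries. The 6 libraries with the most *Bhlha15* were the 6 with the most *Agr2*, and they included PBS replicate 5 and isotype replicate 1. With the lacrimal acinar score as a covariate, the log2 fold change of *Agr2* was 0.64 (edgeR adjusted p = 0.246) against isotype and 0.69 (adjusted p = 0.305) against PBS. That score was 8.45 to 9.38 in anti–IL-4Rα replicates 1, 2, 4 and 5, and its highest value elsewhere was 8.18, in PBS replicate 5. Score and group thus largely moved together, so fits with this covariate, for *Agr2* or any other gene, cannot tell gland content from blockade. The source of the *Agr2* difference was not tested. The 12 lacrimal acinar markers, all tested, had a median log2 fold change of 2.49 in anti–IL-4Rα against isotype. Of them 2 were called higher, where 6.73% of all genes tested were. One of them, *Aqp5* (0.49), was called in 3 of 9 other settings and 3 of 15 fits with 1 library left out. The other, *Amy1* (0.74), did not follow the list: it fell by 0.86 in isotype against PBS (edgeR adjusted p = 0.00228) and averaged 9.81 ± 2.11, 5.41 ± 0.818 and 9.02 ± 0.761 CPM in the PBS, isotype and anti–IL-4Rα groups.

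**Figure D4:**
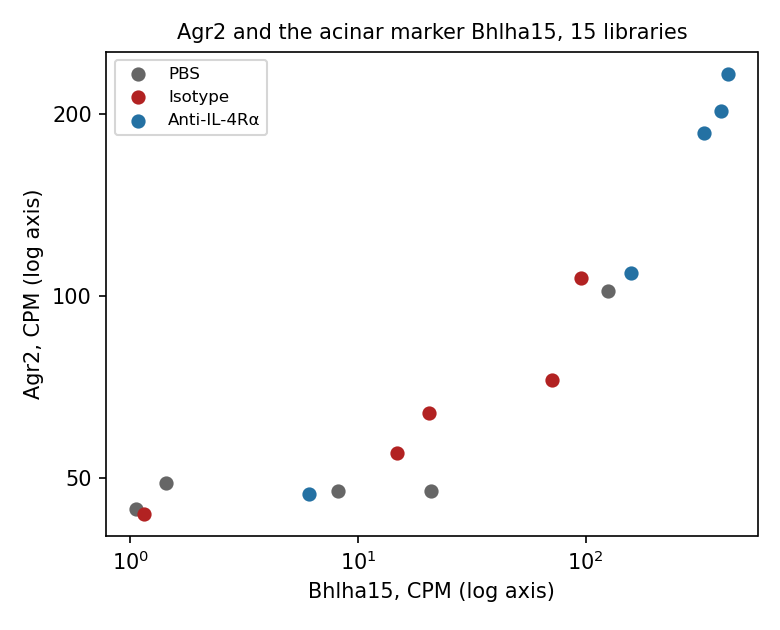
Each point is 1 of the 15 libraries, with *Bhlha15* in CPM on the x axis and *Agr2* in CPM on the y axis, both log axes, colored by group. Libraries of all 3 groups lie along 1 rising band, from 43.7 CPM of *Agr2* at 1.15 CPM of *Bhlha15* to 233 at 422.

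*Tff3* (ENSMUSG00000024029; chromosome 17, 31125306 to 31129646, minus strand), a trefoil peptide of intestinal goblet cells, had 0 counts in all 15 libraries. A count of 0 allows up to 3 counts, or 0.0307 to 0.0741 CPM depending on the library, a limit that covers counting error only. It was therefore not tested. Its relative *Tff1* was present at a median of 42.6 CPM per kilobase and had log2 fold changes of -0.03 (-0.36 to 0.30), -0.19 (-0.52 to 0.14) and -0.22 (-0.55 to 0.12) in the 3 comparisons.

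Other mucin genes were read in the same way. The remaining gel-forming mucins were close to the floor: *Muc6* had at most 2 counts and *Muc19* at most 14 in a library, and *Muc2*, the intestinal gel-forming mucin, was at a median of 0.0772 CPM per kilobase. Among 5 other membrane mucins, 4 were tested, and *Muc15* alone was called, lower in isotype against PBS. In that comparison 7.49% of all genes tested were called lower and 17.0% in either direction. *Muc15* was at 52.5, 43.6, 50, 52.9 and 42.6 CPM in the PBS libraries, 42.1, 35, 31.6, 38.7 and 34 CPM in the isotype libraries and 37.1, 35.4, 44.5, 38.6 and 40.5 CPM in the anti–IL-4Rα libraries. Every isotype library was below every PBS library, and the log2 fold change was -0.41 (SE 0.09, edgeR adjusted p = 0.00883). Against PBS, the anti–IL-4Rα group was at -0.30 (edgeR adjusted p = 0.0682). *Muc3a* was also lower in every isotype than in every PBS library, at -0.32 (edgeR adjusted p = 0.124). Groups without overlap occurred in 12.3% of all genes tested in isotype against PBS. The small mucin-like gene *Mucl2*, a gland product, ranged from 0.0275 to 77300 CPM. Its log2 fold change was 0.21 (edgeR adjusted p = 0.956) in isotype against PBS and 2.86 (-1.54 to 7.26, adjusted p = 0.342) in anti–IL-4Rα against isotype. The anti–IL-4Rα libraries ran from 579 to 77300 CPM with a median of 59200, and the isotype libraries from 0.348 to 15200 with a median of 2980. The paper, which names outliers, reports a significant increase of *Mucl2* after the blocking antibody, while all 15 libraries were used here. *Mucl1* was at -1.30 (edgeR adjusted p = 0.0593) in isotype against PBS and was called higher in anti–IL-4Rα against isotype, by 1.72 (adjusted p = 0.0259). With the lacrimal acinar score as a covariate *Mucl1* was at 1.59 (edgeR adjusted p = 0.0759).

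The sugars of mucins are attached by a series of Golgi enzymes: GalNAc transferases start each chain, core enzymes branch it, and fucosyl and sialyl transferases cap it. Of 20 such genes, all tested, 2 rose and none fell in isotype against PBS, 1 rose and 2 fell in anti–IL-4Rα against isotype, and 1 rose in anti–IL-4Rα against PBS. The shares of all genes tested that were called in either direction were 17.0%, 14.9% and 3.72%. Nothing particular to this list is read from its counts. The medians of the 20 were 0.09, -0.10 and -0.05. *Galnt6*, which starts chains, was at 14.6, 13.7, 17.1, 14.6 and 11.1 CPM in the PBS libraries, 23.4, 37.6, 40.3, 28.1 and 45 CPM in the isotype libraries and 16.4, 14.3, 20.4, 14.4 and 12.8 CPM in the anti–IL-4Rα libraries. The isotype group lay above both others without overlap, and the PBS and anti–IL-4Rα groups overlapped. Of all genes tested, 12.3% had no overlap in isotype against PBS and 7.31% in anti–IL-4Rα against isotype. *Galnt6* had a log2 fold change of 1.29 (SE 0.18, edgeR adjusted p = 0.000936) against PBS and -1.16 (SE 0.18, adjusted p = 0.00271) in anti–IL-4Rα against isotype.

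*Gcnt1*, which makes the branched core 2, was at 3.71, 3.29, 3.01, 3.1 and 3.43 CPM in the PBS libraries, 4.94, 9.03, 8.89, 6.81 and 11 CPM in the isotype libraries and 4.77, 5.73, 7.37, 4.13 and 5.36 CPM in the anti–IL-4Rα libraries. All OVA-challenged libraries lay above all PBS libraries. No overlap was seen in 12.3% of all genes tested in isotype against PBS and in 6.10% in anti–IL-4Rα against PBS. In isotype against PBS the log2 fold change was 1.30 (SE 0.19, edgeR adjusted p = 0.00149), and on the log2(FPKM + 1) scale it was 0.59, still called. *Galnt3* rose by 0.42 in anti–IL-4Rα against isotype (edgeR adjusted p = 0.0458) and by 0.58 against PBS (adjusted p = 0.0353), and *Galnt1* fell by 0.25 against isotype (adjusted p = 0.0265). With the lacrimal acinar score as a covariate, *Galnt3* was at 0.33 (edgeR adjusted p = 0.192) and 0.43 (adjusted p = 0.17), and *Galnt1* at -0.20 (adjusted p = 0.11). With 1 library left out, *Galnt3* was called in 3 of 15 fits against isotype and 9 of 15 against PBS, and *Galnt1* in 8 of 15. *Gcnt1* and *Galnt6* are also expressed by activated leukocytes. Of 8 leukocyte markers, 4 rose in isotype against PBS, where 9.53% of all genes tested were called higher. In anti–IL-4Rα against isotype 0 were called, and their median log2 fold change was -0.10. Their summed levels were 187 to 229 CPM in the PBS libraries, 217 to 404 CPM in the isotype libraries and 195 to 339 CPM in the anti–IL-4Rα libraries. The part of leukocytes in these differences was not tested.

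**Figure D5:**
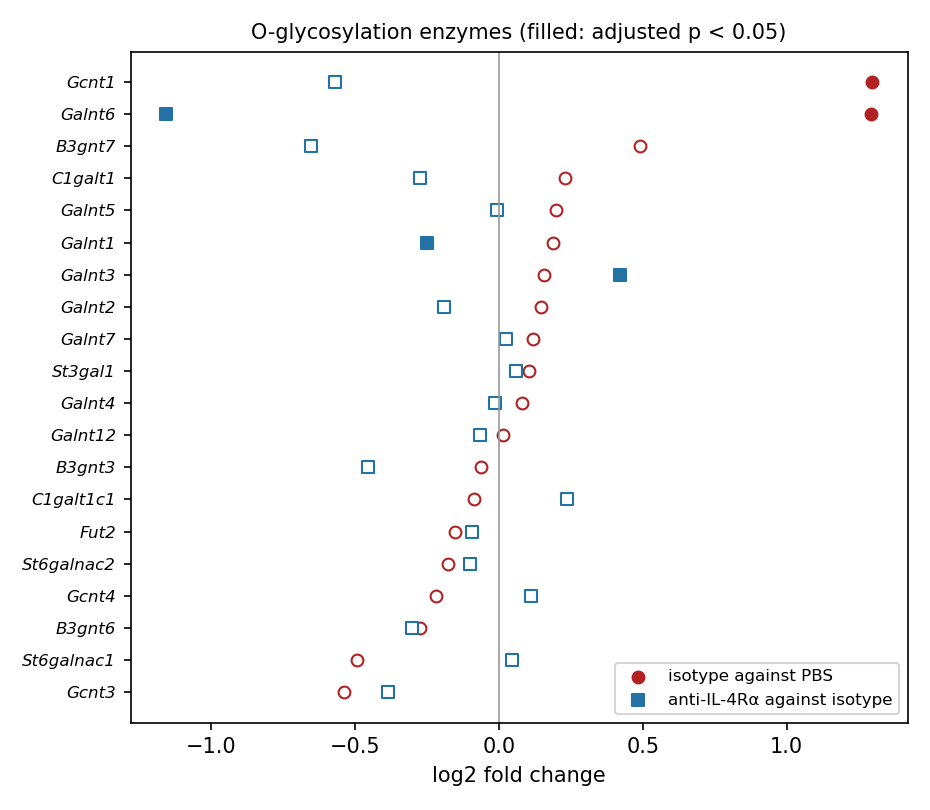
The log2 fold change (x axis) of 20 O-glycosylation genes is drawn for isotype against PBS (circles) and anti–IL-4Rα against isotype (squares), filled where the edgeR adjusted p was under 0.05. *Gcnt1* and *Galnt6* stand apart at 1.30 and 1.29 among the circles, and *Galnt6* is the lowest square at -1.16.

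Genes for goblet cell transcription, folding and secretion other than the members numbered 17, of which 14 were tested. By edgeR 0 were called in isotype against PBS, where the median log2 fold change was -0.03, 2 had an unadjusted p under 0.05 and DESeq2 called 1. Of all genes tested, edgeR called 17.0% in that comparison, 14.9% in anti–IL-4Rα against isotype and 3.72% in anti–IL-4Rα against PBS. Under blockade, against isotype, edgeR called *Agr3* (1.27), *Foxa1* (0.85) and *Xbp1* (0.84) higher and *Kcnk6* lower (-0.46), and against PBS *Foxa1* higher (0.92). *Agr3*, a relative of *Agr2*, rested on 5 to 16 counts per library, and its difference ranged from 0.18 to 1.29 over the 9 other settings. With 5 to 7 counts in the isotype libraries, under the minimum of 10, it was tested only through libraries of the other groups. *Xbp1*, which drives the expansion of the endoplasmic reticulum in secretory cells of any kind, was called in 7 of these 9 and in 9 of 15 fits with 1 library left out. With the lacrimal acinar score as a covariate *Xbp1* was at 0.54 (edgeR adjusted p = 0.114). *Kcnk6* was called in 7 of 9 settings and 10 of 15 such fits. *Foxa1* was called in 6 of 9 and 9 of 15 against isotype, and in 2 of 9 and 4 of 15 against PBS. Under the covariate *Foxa1* was at 0.57 (edgeR adjusted p = 0.151) and 0.52 (adjusted p = 0.278). *Foxa1* was at 32.2, 18.1, 14.9, 34.4 and 31.3 CPM in the anti–IL-4Rα libraries and at 10.6 to 18.7 CPM in the isotype libraries, with the same 3 replicates high as for *Bhlha15*. Of 11 fate regulators, 10 were tested. *Hes1*, a Notch target, fell by 0.40 in isotype against PBS, a call that held in 7 of 9 other settings and 12 of 15 fits with 1 library left out. *Pax6* rose by 0.43 in anti–IL-4Rα against isotype (called in 5 of 9 and 6 of 15). *Notch3* fell by 0.28 against isotype (6 of 9 and 8 of 15) and by 0.32 against PBS (5 of 9 and 4 of 15), and was at -0.18 in both comparisons under the lacrimal covariate.

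Epithelial genes of type 2 responses other than *Clca1* gave a setting for its values. Of 14, 11 were tested. In isotype against PBS 3 rose, where 9.53% of all genes tested were called higher. In anti–IL-4Rα against isotype 3 fell and 1 rose, where 8.13% of all genes were called lower and 6.73% higher. *Alox15*, a lipoxygenase raised by IL-4 and IL-13 in epithelium and macrophages, rose by 2.42 (edgeR adjusted p = 0.00208) and fell by 2.29 (adjusted p = 0.00446). *Postn*, a matrix protein, rose by 1.24 (edgeR adjusted p = 0.000637) and fell by 1.28 (adjusted p = 0.000594). *Retnla* rose by 1.496 in isotype against PBS, and *Clca2* fell by 0.55 in anti–IL-4Rα against isotype. *Pigr*, the polymeric immunoglobulin receptor, rose by 1.38 against isotype and by 1.62 against PBS, and was highest in the anti–IL-4Rα libraries rich in *Bhlha15*. These calls of *Pigr* held in 7 of 9 other settings and 9 of 15 fits with 1 library left out against isotype, and in 5 of 9 and 7 of 15 against PBS. Under the lacrimal covariate *Pigr* was at 0.88 (edgeR adjusted p = 0.107) and 0.90 (adjusted p = 0.177). Of 5 partners of the glycocalyx, all tested, *Msn*, which links membrane mucins and other surface proteins to actin, rose by 0.52 in isotype against PBS and fell by 0.40 in anti–IL-4Rα against isotype, the second call holding in 7 of 9 other settings and 8 of 15 fits with 1 library left out.

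Listed epithelial keratins and genes of other tissue differed between groups as well. *Krt14*, a basal keratin, rose by 0.55 in isotype against PBS and fell by 0.75 in anti–IL-4Rα against isotype, and edgeR called *Krt12* higher in anti–IL-4Rα against isotype by 3.55. That value rested on anti–IL-4Rα replicate 1, at 47.2 CPM where the other 4 were at 1.21 to 6.35 CPM: without it *Krt12* was at 1.79 (edgeR adjusted p = 0.101), and the call held in 4 of 9 other settings and 11 of 15 fits with 1 library left out. Of 6 skeletal muscle genes, 5 fell in isotype against PBS, where 7.49% of all genes tested were called lower. Of 6 epidermal and 8 meibomian gland markers edgeR called 0 in each comparison. At an unadjusted p under 0.05 the epidermal count was 2, 0 and 3 and the meibomian count 0, 1 and 0 in the 3 comparisons, and DESeq2 called 1 epidermal gene, in isotype against PBS. The 5 hair follicle genes tested had medians of 1.53, -1.45 and 0.08. EdgeR called 0 of them, and all 5 had an unadjusted p under 0.05 in each of the first 2 comparisons. There DESeq2 called 2 of them in each, and 4273 and 4023 of 19006 genes. Their summed level was 6640 CPM in isotype replicate 2 and 489 to 1010 CPM in the other isotype libraries. The part of these tissues in the members' values was not tested.

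Promoters were read from RefSeq (GRCm38.p6) for 6 of the 10 members, *Muc1*, *Muc4*, *Muc16*, *Spdef*, *Agr2* and *Fcgbp*. The STAT6-type letters TTCNNNNGAA, present on either strand in 5.85% of the 32851 promoters of the same length, and the STAT-type letters TTCNNNGAA, present in 7.02%, had no match in these 6. The FOXA-type letters TGTTTAC (3.17% of promoters) had none either, nor had TGACGTGG, the XBP1-type letters (0.563%). The TATA box letters TATAAA (12.4%) stood 31 bases before the start of *Muc1* and 36 before that of *Muc4*. Among the O-glycosylation genes that were called, 1 of the starts listed for *Gcnt1* held TTCNNNNGAA, in 2 copies. The 2 members whose promoters are listed and that were called are shown with that start of *Gcnt1*, each running up to the base before the start, with matches to TTCNNNNGAA in capitals. They lie at chr17:27728952-27729201 (minus strand), chr7:28070986-28071235 (plus strand) and chr19:17356668-17356917 (minus strand).
Spdef: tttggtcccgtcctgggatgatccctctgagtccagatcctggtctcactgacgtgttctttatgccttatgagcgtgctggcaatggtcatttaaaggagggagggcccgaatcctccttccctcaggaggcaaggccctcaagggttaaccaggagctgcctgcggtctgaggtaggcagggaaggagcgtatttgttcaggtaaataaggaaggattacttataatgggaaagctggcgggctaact
Fcgbp: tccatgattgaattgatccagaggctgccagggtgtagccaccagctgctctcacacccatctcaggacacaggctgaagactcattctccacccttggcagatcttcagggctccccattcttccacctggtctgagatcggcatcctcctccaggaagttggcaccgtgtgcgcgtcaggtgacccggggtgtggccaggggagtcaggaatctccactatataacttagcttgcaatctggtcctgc
Gcnt1: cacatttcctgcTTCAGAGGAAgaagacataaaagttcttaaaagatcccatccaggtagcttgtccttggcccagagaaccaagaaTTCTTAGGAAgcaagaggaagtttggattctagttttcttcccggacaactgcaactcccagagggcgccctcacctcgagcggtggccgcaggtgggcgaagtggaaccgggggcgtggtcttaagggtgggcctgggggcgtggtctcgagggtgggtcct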

How the data were processed

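RNA was selected for polyA, and libraries were made with a stranded mRNA kit. Read pairs were filtered at a quality score of 20 and mapped to mouse B38 and to Ensembl genes by Omicsoft Array Studio. The study gives the number of pairs that mapped uniquely. The authors deposited one estimated count per gene and sample, not scaled for depth. The counting method and the use of strand are not given in the sources used here. Values were rounded to whole numbers. Names, positions and exon lengths came from GENCODE M21 (GRCm38), which matched 55141 of 55487 identifiers; 346 were not matched.

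A gene was tested when 5 or more libraries had 10 or more counts (19006 genes), with edgeR 4.0.16 in R 4.3.3 (quasi-likelihood test, TMM factors, 1 model of 3 groups, two-sided, Benjamini-Hochberg over all genes tested), called at an adjusted p under 0.05. CPM uses the TMM factors, and log2 CPM a prior count of 2. Single members were also compared by an exact permutation test of log2 CPM. The 9 other settings included DESeq2 1.42.0 and limma 3.58.1 on log2(CPM + 1) and on log2(FPKM + 1). Those of edgeR were upper quartile factors, its filterByExpr filter, no filter, the 2 groups compared alone and a replicate block. The last was a covariate for the mean log2 CPM of the lacrimal acinar markers. Each library was also left out in turn. The fits were tested on simulated data. Groups came from the sample labels. The study names outliers without identifying them, and all 15 libraries were used. The members and the 18 gene lists were chosen with earlier results of these data known. From each list, up to 4 called genes per comparison were named by the size of the change, and all 10 members were named. Lists are described by counts and medians, with no set test. Library totals ran from 48622246 to 87745024 counts. *Clca1*, with the fewest counts of the members tested, had the largest standard errors, and those of the mucins were of similar size from the least to the most counted.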

Additional observations from a re-analysis of the deposited data

Results flagged for a closer look

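*Agr2* in PBS replicate 5 was at 102 CPM, while the other 4 PBS libraries were at 44.4 to 49.1 CPM, so this library stood apart from its group. It was 1 of 30 sets of 5 libraries examined, those of the 9 members tested and of the secreted to membrane ratio in 3 groups, and chance sets apart about 1 set in 20. The same library had 126 CPM of the acinar gene *Bhlha15*, the most of the PBS group.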

How the results depend on the processing

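The calls of *Spdef* (isotype and anti–IL-4Rα against PBS), *Clca1* (isotype against PBS, anti–IL-4Rα against isotype) and *Fcgbp* (anti–IL-4Rα against isotype) held in all 9 other settings and without each of the 15 libraries. In isotype against PBS, 3235 genes were called, 2115 with the replicate block and 1863 to 3936 with 1 library left out. In anti–IL-4Rα against isotype, 2826 were called, 1749 with no filter, 677 in the 2 groups alone, 1859 with the replicate block, 670 with the lacrimal covariate and 882 to 4206 with 1 library left out. In anti–IL-4Rα against PBS, 707 were called, 1966 by DESeq2, 327 with no filter, 409 by limma on log2(CPM + 1), 312 with the replicate block, 91 with the lacrimal covariate and 82 to 2029 with 1 library left out. Members called in anti–IL-4Rα against PBS were 2, and 4 by DESeq2. With 1 library left out, members called were 2 to 3 in isotype against PBS, 2 to 3 in anti–IL-4Rα against isotype and 1 to 3 in anti–IL-4Rα against PBS. The secreted to membrane ratio without division by length was 2.2, 2.73 and 1.98 in the PBS, isotype and anti–IL-4Rα groups. The causes were not tested.

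Differences near 0 changed sign when 1 library was left out: *Muc1* ran from -0.15 to 0.06 and *Fcgbp* from 0 to 0.18 in isotype against PBS, *Muc4* from -0.04 to 0.17 and *Muc16* from -0.12 to 0.07 in anti–IL-4Rα against isotype, and *Muc1* from -0.02 to 0.24 and *Muc4* from -0.17 to 0.07 in anti–IL-4Rα against PBS. *Muc4* in anti–IL-4Rα against PBS was 0.14 with the lacrimal covariate. The labels do not say whether a replicate number marks a shared cage, day or batch. Correlations of same-numbered libraries ran from -0.385 to 0.454 and cannot settle this, so the block is given for its counts alone. Depth limits *Clca1*, and at 0 counts *Tff3* could not be tested.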
